A study of Mus musculus with 20 samples.

Results

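Fatty acid oxidation and ketogenesis were followed through 33 genes chosen by name, which cover fatty acid uptake and activation, the carnitine shuttle, mitochondrial and peroxisomal beta-oxidation, ketone body enzymes and 2 regulators. A gene was counted as measured where the array annotation gave its symbol, and no other, to a probeset, and probesets of a symbol were averaged. This was so for 32 of the 33 genes, out of 22180 genes in all, and Acsl1 was not analysed here. The livers came from adult male C57Bl6 mice (C57BL/6J in the methods of the study) that were Nfil3-/- and so lacked the transcriptional repressor NFIL3 (NFIL3 KO) or were wild-type littermates (WT). Mice received 1 µg/g tunicamycin, which blocks N-linked glycosylation and causes endoplasmic reticulum stress, or vehicle (150 mM dextrose), and livers were taken after 8 h. There were 5 mice in each of the 4 groups (NFIL3 KO tunicamycin, NFIL3 KO vehicle, WT tunicamycin and WT vehicle), with 1 array per mouse. All levels below are log2 array signals, and each difference between groups is on the same scale, with its standard error (SE) from a limma fit to the 20 arrays. A gene was called where its p, adjusted by Benjamini-Hochberg over the 22180 genes, was under 0.05.

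Fatty acids that enter a hepatocyte are activated to acyl-CoA, carried into mitochondria as acylcarnitines and shortened in repeated rounds of dehydrogenation, hydration, a further dehydrogenation and thiolysis. Peroxisomes shorten very long and branched chains by a parallel set of enzymes and pass the products on. In the fasting liver much of the acetyl-CoA made in this way leaves as ketone bodies, and the programme is driven largely by the nuclear receptor PPARα with its coactivator PGC-1α.

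Labels and tissue were checked first. Nfil3 had a median level of 5.07 (4.83 to 5.99) in NFIL3 KO tunicamycin livers, against 7.95 (7.42 to 8.55) in WT tunicamycin livers, a difference of -2.75 ± 0.23 (limma, adjusted p = 4.09e-07). Under vehicle it was 5.35 (5.18 to 5.70) in NFIL3 KO livers, against 6.50 (5.79 to 6.95) in WT livers, and the groups did not overlap, but the difference of -1.03 ± 0.23 did not pass the test (limma, adjusted p = 0.227). The sources used here do not say if its probes match sequence that the knockout removes. Ddit3 and Hspa5, 2 targets of the stress response, rose by 4.56 and 2.15 in NFIL3 KO livers and by 5.48 and 2.10 in WT livers. All 9 measured hepatocyte markers lay above the array median in WT vehicle livers, and all 15 neutrophil, T cell, B cell and erythroid markers lay below it. Of 4 adipocyte markers 1 lay above it, and of 4 skeletal muscle markers 2 did. Arrays of a group correlated at 0.974 to 0.982 with the others of their group. NFIL3 KO tunicamycin replicate 3 stood apart, with a score of 16.7 on the first principal component, against 47.1 to 57.1 on the other 4 arrays of its group. Its values are given with the results it touches.

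Tunicamycin lowered most of the pathway in both genotypes. In NFIL3 KO livers 27 of the 32 genes fell and 1 rose, where 13.7% of all genes fell and 13.5% rose. In WT livers 28 fell and 1 rose, against 13.7% and 13.7% of all genes. The median difference of the 32 genes was -0.63 in NFIL3 KO livers and -0.61 in WT livers, and that of all genes was -0.03 in each. The 27 genes that fell in NFIL3 KO livers all fell in WT livers too, and Decr1 fell in WT livers only by this threshold. Falls of at least 2-fold were reached by 6 genes in NFIL3 KO livers (Ppargc1a, Hadh, Eci2, Acaa1b, Bdh1 and Acat1) and by the same 6 and Ehhadh in WT livers. The share of all genes that fell this far was not counted. All 5 tunicamycin arrays lay below all 5 vehicle arrays for 23 of the 32 genes in NFIL3 KO livers, against 10.6% of all genes. In WT livers this was so for 26 of the 32, against 10.5% of all genes. It held in both genotypes for 22 of the 32, a joint share that was not counted over all genes. Without NFIL3 KO tunicamycin replicate 3, 28 genes fell in NFIL3 KO livers. Because whole liver was profiled, fewer hepatocytes and less RNA per hepatocyte cannot be told apart.

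**Figure D1:**
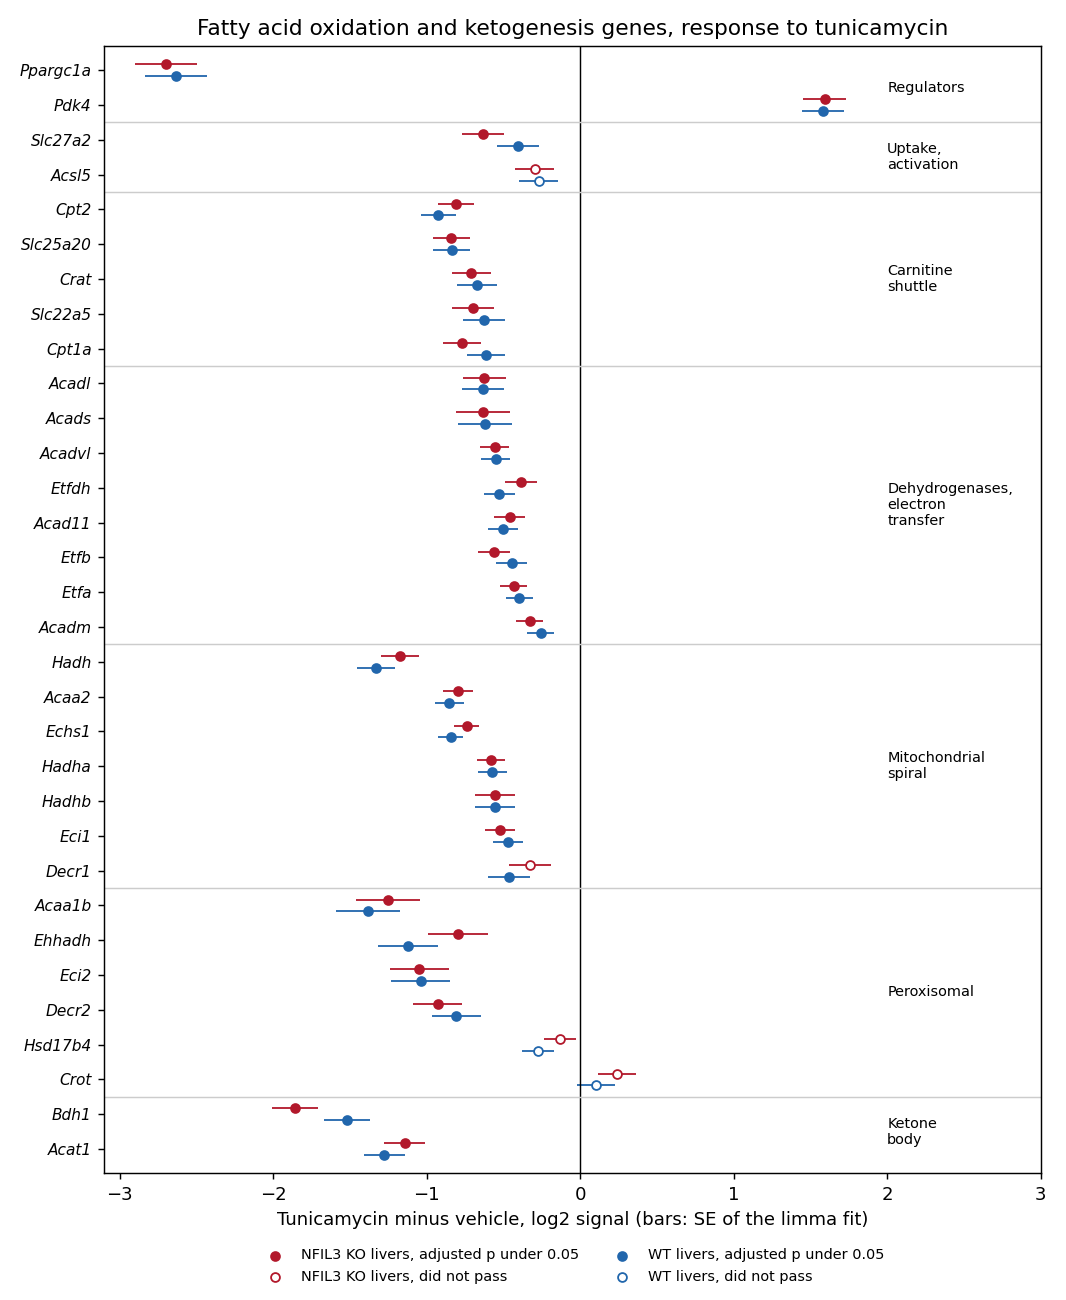
Difference between tunicamycin and vehicle (x axis, log2 signal) for the 32 genes, ordered by role, in NFIL3 KO livers (red) and WT livers (blue), with bars for the SE of the limma fit and filled points for adjusted p under 0.05. Nearly all points lie left of 0, Pdk4 alone stands far to the right at 1.59 and 1.58, and both colours lie close together for most genes.

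The 2 regulators moved furthest in opposite directions. Ppargc1a encodes PGC-1α, the coactivator of mitochondrial and fasting genes. Its level was 4.56, 4.31, 5.01, 3.72 and 4.19 in NFIL3 KO tunicamycin livers, against 6.995, 6.75, 6.84, 7.23 and 7.47 in NFIL3 KO vehicle livers. In WT livers it was 4.76, 4.90, 4.02, 4.45 and 4.25 under tunicamycin, against 6.97, 7.12, 7.22, 6.77 and 7.45 under vehicle. Every tunicamycin array was low and every vehicle array high, with a wide gap between them. Ppargc1a fell by 2.70 ± 0.20 in NFIL3 KO livers (limma, adjusted p = 5.87e-10), to 15.4% of the vehicle level, and by 2.63 ± 0.20 in WT livers (limma, adjusted p = 7.39e-10), to 16.1%.

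Pdk4 encodes a kinase that shuts off pyruvate dehydrogenase and so spares glucose when fat is burned. Its level was 7.20, 6.74, 7.25, 7.31 and 7.02 in NFIL3 KO tunicamycin livers, against 5.71, 5.20, 5.53, 5.50 and 5.61 in NFIL3 KO vehicle livers. WT livers had 7.10, 7.50, 7.10, 6.99 and 7.25 under tunicamycin, against 5.48, 6.08, 5.67, 5.48 and 5.33 under vehicle. All tunicamycin arrays lay above all vehicle arrays in each genotype, which 10.3% of all genes did in NFIL3 KO livers and 11.7% in WT livers. Pdk4 rose by 1.59 ± 0.14 in NFIL3 KO livers (limma, adjusted p = 5.61e-09), to 302% of the vehicle level, and by 1.58 ± 0.14 in WT livers (limma, adjusted p = 5.52e-09), to 299%. It was the only one of the 32 genes called higher under tunicamycin.

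**Figure D2:**
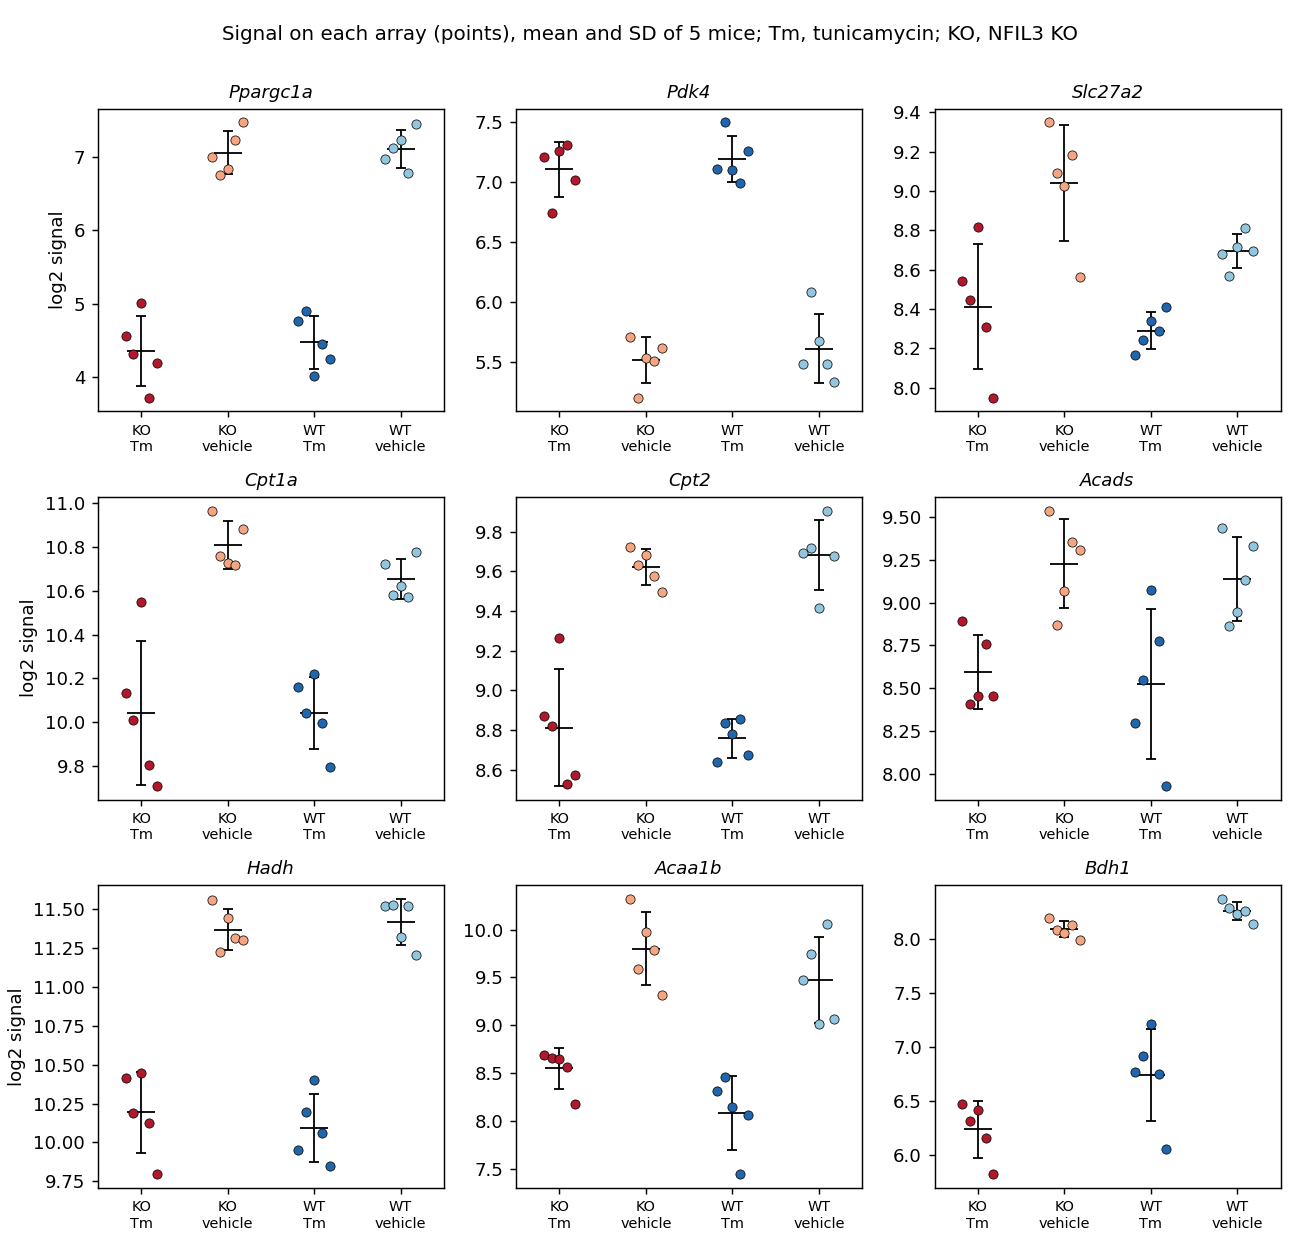
Log2 signal (y axis, a separate scale in each panel that does not start at 0) of 9 genes on each array, by group along the x axis, with the mean and SD of 5 mice. The tunicamycin arrays lie below the vehicle arrays for most of the genes shown, Pdk4 runs the other way, and the groups overlap for Acads in both genotypes and for Slc27a2 in NFIL3 KO livers.

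The promoter windows of these regulators and of Cpt1a, the gate of mitochondrial oxidation, are shown because they carry the largest fall, the only rise and the step that commits fatty acids to oxidation. Each runs from 250 bases before to 50 bases after a RefSeq start site (GRCm38.p6), and the strand of the gene is printed 5′ to 3′. Ppargc1a lies on the minus strand at chr5:51567676-51567975, Pdk4 on the minus strand at chr6:5496229-5496528 and Cpt1a on the plus strand at chr19:3323051-3323350. The capitals in Cpt1a mark the core that nuclear receptors bind (AGGTCA), here read on the opposite strand.
Ppargc1a: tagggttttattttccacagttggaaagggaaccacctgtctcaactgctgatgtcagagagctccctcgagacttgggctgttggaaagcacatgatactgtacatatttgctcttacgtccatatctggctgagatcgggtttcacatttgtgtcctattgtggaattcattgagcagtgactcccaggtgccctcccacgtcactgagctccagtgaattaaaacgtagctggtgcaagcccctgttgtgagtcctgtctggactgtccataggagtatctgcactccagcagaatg
Pdk4: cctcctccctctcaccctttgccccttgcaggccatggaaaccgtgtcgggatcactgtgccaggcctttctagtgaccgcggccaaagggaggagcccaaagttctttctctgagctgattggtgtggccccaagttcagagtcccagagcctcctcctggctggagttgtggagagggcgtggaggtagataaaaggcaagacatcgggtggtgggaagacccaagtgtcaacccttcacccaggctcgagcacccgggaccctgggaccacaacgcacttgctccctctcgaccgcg
Cpt1a: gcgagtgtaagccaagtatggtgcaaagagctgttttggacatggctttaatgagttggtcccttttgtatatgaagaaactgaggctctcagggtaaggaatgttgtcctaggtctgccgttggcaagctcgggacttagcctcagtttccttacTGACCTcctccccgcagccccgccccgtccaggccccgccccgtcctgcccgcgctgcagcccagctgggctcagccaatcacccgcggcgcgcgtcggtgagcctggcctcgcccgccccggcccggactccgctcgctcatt

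Promoter windows were found for 27 of the 32 genes, 28 windows in all, and searched on both strands for 10 motifs. The nuclear receptor core AGGTCA was present in 17.9% of them (Acadm, Acadvl, Cpt1a, Echs1 and Slc27a2), against 16.3% of all 32851 promoter windows. The full PPAR element, a direct repeat of that core with a single base between the copies, was in none of the 28 and in 0.0396% of all windows. The palindromic NRF1 site was in 10.7% of the windows (Etfb, Etfdh and Slc22a5), against 4.6% of all windows, and the C/EBP-ATF element TGATGCAA was in that of Echs1 alone, against 0.895% of all windows. The D-box, which NFIL3 and the PAR-bZIP activators bind, was searched as TTATGTAA and TTACGTAA and was in none of the 28, against 0.938% and 0.119% of all windows. The ERR element TCAAGGTCA (which also holds the core), the HNF4 core CAAAGTCCA, the CRE TGACGTCA and the forkhead core TGTTTAC were likewise in none, against 0.423%, 0.475%, 1.79% and 3.65% of all windows. Exact strings this rare are seldom met in 28 short windows, so their absence says little about binding to these genes.

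Among the genes of uptake and activation, Slc27a2 fell and Acsl5 did not pass the test. Slc27a2 encodes a fatty acid transporter with very-long-chain acyl-CoA synthetase activity. Its level was 8.54, 8.44, 8.82, 8.31 and 7.95 in NFIL3 KO tunicamycin livers, against 9.35, 9.09, 9.02, 9.18 and 8.56 in NFIL3 KO vehicle livers. In WT livers it was 8.17, 8.24, 8.34, 8.29 and 8.41 under tunicamycin, against 8.68, 8.57, 8.72, 8.81 and 8.70 under vehicle. The groups overlapped in NFIL3 KO livers and were apart in WT livers. Slc27a2 fell by 0.63 ± 0.14 in NFIL3 KO livers (limma, adjusted p = 0.00095) and by 0.40 ± 0.14 in WT livers (limma, adjusted p = 0.0297). The WT call was lost without WT vehicle replicate 3 or 4 or WT tunicamycin replicate 1 or 2 (limma, adjusted p up to 0.07). Its value is the mean of a bright probeset, which differed by -0.47 in NFIL3 KO livers and -0.39 in WT livers, and a dim one, which differed by -0.79 and -0.42. Acsl5, a long-chain acyl-CoA synthetase, differed by -0.30 ± 0.13 in NFIL3 KO livers (limma, adjusted p = 0.094) and -0.27 ± 0.13 in WT livers (limma, adjusted p = 0.13).

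All 5 genes of the carnitine shuttle fell in both genotypes, with a median difference of -0.77 in NFIL3 KO livers and -0.67 in WT livers. Cpt1a encodes the outer-membrane transferase that makes long-chain acylcarnitines and controls entry into mitochondria. Its level was 10.13, 10.01, 10.55, 9.81 and 9.71 in NFIL3 KO tunicamycin livers, against 10.97, 10.76, 10.73, 10.72 and 10.88 in NFIL3 KO vehicle livers. Levels in WT livers were 10.16, 10.04, 10.22, 10.00 and 9.80 under tunicamycin, against 10.72, 10.58, 10.62, 10.57 and 10.78 under vehicle. The groups were apart in both genotypes, and the highest NFIL3 KO tunicamycin value was that of replicate 3. Cpt1a fell by 0.77 ± 0.12 in NFIL3 KO livers (limma, adjusted p = 3.03e-05), to 58.7% of the vehicle level, and by 0.61 ± 0.12 in WT livers (limma, adjusted p = 0.000422), to 65.5%.

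Cpt2, the inner-membrane partner that turns acylcarnitines back into acyl-CoA, had the largest change of the shuttle over both genotypes. Its level was 8.87, 8.82, 9.26, 8.53 and 8.57 in NFIL3 KO tunicamycin livers, against 9.72, 9.63, 9.68, 9.58 and 9.49 in NFIL3 KO vehicle livers. In WT livers it was 8.64, 8.84, 8.78, 8.86 and 8.68 under tunicamycin, against 9.69, 9.72, 9.42, 9.91 and 9.68 under vehicle. Tunicamycin and vehicle arrays were again apart in each genotype. Cpt2 fell by 0.81 ± 0.12 in NFIL3 KO livers (limma, adjusted p = 7.92e-06) and by 0.92 ± 0.12 in WT livers (limma, adjusted p = 1.28e-06). Slc25a20, the carrier that exchanges acylcarnitine for carnitine across the inner membrane, fell by 0.84 in both genotypes, and Slc22a5, the carnitine importer of the plasma membrane, fell by 0.70 in NFIL3 KO livers and 0.63 in WT livers. Crat, which moves acetyl groups between CoA and carnitine, fell by 0.71 in NFIL3 KO livers and 0.67 in WT livers as the mean of 2 probesets that did not move alike. One of them differed by -1.30 in NFIL3 KO livers and -1.19 in WT livers and the other by -0.11 and -0.15.

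All 8 genes of the acyl-CoA dehydrogenases and of electron transfer fell in both genotypes, with median differences of -0.51 in NFIL3 KO livers and -0.52 in WT livers. Mitochondrial dehydrogenases of this kind take the first electrons from an acyl-CoA, and electron transfer hands them to the respiratory chain. Acads, the short-chain dehydrogenase, was 8.89, 8.41, 8.46, 8.76 and 8.46 in NFIL3 KO tunicamycin livers, against 9.54, 8.87, 9.07, 9.36 and 9.31 in NFIL3 KO vehicle livers. WT livers had 8.30, 8.55, 9.07, 8.78 and 7.93 under tunicamycin, against 9.44, 8.86, 8.94, 9.13 and 9.33 under vehicle. The groups overlapped narrowly in both genotypes, since tunicamycin replicate 1 of NFIL3 KO and replicate 3 of WT reached the lowest vehicle values. Acads fell by 0.63 ± 0.18 in NFIL3 KO livers (limma, adjusted p = 0.00777) and by 0.62 ± 0.18 in WT livers (limma, adjusted p = 0.00945).

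The other dehydrogenases fell by similar or smaller amounts. Acadl, for long chains, fell by 0.62 in NFIL3 KO livers and 0.63 in WT livers, and Acadvl, for very long chains, fell by 0.56 in NFIL3 KO livers and 0.55 in WT livers. Acad11, a further family member, fell by 0.46 in NFIL3 KO livers and 0.50 in WT livers. Acadm, the medium-chain enzyme, had the smallest called changes, -0.33 ± 0.09 in NFIL3 KO livers (limma, adjusted p = 0.00629) and -0.26 ± 0.09 in WT livers (limma, adjusted p = 0.0316). Its WT call was lost when any of 6 WT arrays was left out (vehicle replicates 1, 2 and 5, tunicamycin replicates 1, 4 and 5), with limma adjusted p of up to 0.0914. With cyclic loess in place of the deposited scaling Acadm differed by -0.22 in NFIL3 KO livers and -0.15 in WT livers and passed in neither (limma, adjusted p = 0.056 and 0.208). Etfa and Etfb, the subunits of the electron-transferring flavoprotein, fell by 0.43 and 0.56 in NFIL3 KO livers and by 0.40 and 0.45 in WT livers. Etfdh, which passes those electrons to ubiquinone, fell by 0.39 in NFIL3 KO livers and 0.53 in WT livers.

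Of the 7 remaining enzymes of the mitochondrial cycle, 6 fell in NFIL3 KO livers and 7 in WT livers, with median differences of -0.58 and -0.57. Hadh, the medium- and short-chain 3-hydroxyacyl-CoA dehydrogenase, fell furthest. Its level was 10.42, 10.19, 10.44, 10.13 and 9.80 in NFIL3 KO tunicamycin livers, against 11.56, 11.22, 11.44, 11.32 and 11.30 in NFIL3 KO vehicle livers. Levels in WT livers were 9.95, 10.20, 10.40, 10.06 and 9.85 under tunicamycin, against 11.52, 11.53, 11.32, 11.52 and 11.20 under vehicle. No tunicamycin array came near the lowest vehicle array. Hadh fell by 1.17 ± 0.12 in NFIL3 KO livers (limma, adjusted p = 9.07e-08), to 44.3% of the vehicle level, and by 1.33 ± 0.12 in WT livers (limma, adjusted p = 1.28e-08), to 39.8%.

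Acaa2, the mitochondrial thiolase, fell by 0.80 in NFIL3 KO livers and 0.85 in WT livers, and Echs1, the short-chain enoyl-CoA hydratase, fell by 0.74 in NFIL3 KO livers and 0.84 in WT livers. Eci1 and Decr1 handle the double bonds of unsaturated fatty acids. Eci1 fell by 0.52 in NFIL3 KO livers and 0.47 in WT livers. Decr1 differed by -0.33 ± 0.14 in NFIL3 KO livers (limma, adjusted p = 0.0852) and fell by 0.46 ± 0.14 in WT livers (limma, adjusted p = 0.013). Without NFIL3 KO tunicamycin replicate 3 it fell by 0.48 in NFIL3 KO livers too (limma, adjusted p = 0.00213), and its responses in NFIL3 KO and WT livers differed by 0.13, with a 95% interval of -0.27 to 0.54.

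Hadha and Hadhb encode the subunits of the trifunctional protein, which carries out the later steps of each round on long chains. Hadha fell by 0.58 ± 0.09 in NFIL3 KO livers and 0.57 ± 0.09 in WT livers, and Hadhb fell by 0.56 ± 0.13 in NFIL3 KO livers and 0.56 ± 0.13 in WT livers. The Hadhb probeset was dim, with values of 3.85 to 4.51 under tunicamycin and 4.28 to 5.12 under vehicle over both genotypes. These lay around the array medians of all probesets, 4.65 to 4.77. Their RefSeq promoter windows are shown, chosen after their values were seen, because the genes lie head to head and encode subunits of one protein. The windows, chr5:30154931-30155230 for Hadha (minus strand) and chr5:30155003-30155302 for Hadhb (plus strand), share 228 bases that are read in opposite directions, and none of the 10 motifs was in either.
Hadha: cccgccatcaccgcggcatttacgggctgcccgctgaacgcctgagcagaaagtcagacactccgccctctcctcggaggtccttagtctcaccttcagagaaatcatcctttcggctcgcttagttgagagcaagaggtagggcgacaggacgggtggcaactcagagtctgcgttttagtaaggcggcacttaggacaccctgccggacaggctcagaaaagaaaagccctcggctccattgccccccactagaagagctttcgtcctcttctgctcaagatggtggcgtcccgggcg
Hadhb: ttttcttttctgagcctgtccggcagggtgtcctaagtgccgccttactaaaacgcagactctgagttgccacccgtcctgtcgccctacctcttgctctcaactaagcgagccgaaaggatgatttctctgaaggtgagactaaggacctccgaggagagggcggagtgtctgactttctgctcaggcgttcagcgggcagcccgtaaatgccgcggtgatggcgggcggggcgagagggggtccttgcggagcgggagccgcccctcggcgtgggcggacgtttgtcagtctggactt

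The 6 peroxisomal genes were split, with 4 that fell in both genotypes and 2, Hsd17b4 and Crot, that passed in neither. Acaa1b, a peroxisomal thiolase, changed most. Its level was 8.68, 8.65, 8.65, 8.57 and 8.18 in NFIL3 KO tunicamycin livers, against 10.32, 9.59, 9.97, 9.78 and 9.32 in NFIL3 KO vehicle livers. In WT livers it was 8.32, 8.46, 8.14, 7.44 and 8.06 under tunicamycin, against 9.47, 9.75, 9.01, 10.06 and 9.06 under vehicle. Tunicamycin and vehicle arrays were apart in each genotype, with a wide spread among the vehicle arrays. Acaa1b fell by 1.25 ± 0.21 in NFIL3 KO livers (limma, adjusted p = 5.09e-05), to 42.0% of the vehicle level, and by 1.39 ± 0.21 in WT livers (limma, adjusted p = 1.36e-05), to 38.3%. Its near-identical paralog Acaa1a may share probes with it, so the split between them is uncertain. Acaa1a differed by -0.39 ± 0.14 in NFIL3 KO livers and passed narrowly (limma, adjusted p = 0.0474), a call lost without any of WT vehicle replicates 1, 4 and 5, NFIL3 KO vehicle replicates 1, 2, 3 and 5 and NFIL3 KO tunicamycin replicates 1, 3, 4 and 5 (limma, adjusted p up to 0.109). It differed by -0.29 ± 0.14 in WT livers (limma, adjusted p = 0.156) and passed there without WT tunicamycin replicate 3 (-0.40, limma, adjusted p = 0.0413).

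Eci2 and Decr2, which handle double bonds in peroxisomes, fell by 1.05 and 0.93 in NFIL3 KO livers and by 1.04 and 0.81 in WT livers. Ehhadh, the bifunctional enzyme of the PPARα-inducible branch, fell by 0.79 ± 0.19 in NFIL3 KO livers (limma, adjusted p = 0.00275) and by 1.12 ± 0.19 in WT livers (limma, adjusted p = 7.66e-05). Hsd17b4, the bifunctional enzyme for branched chains and bile acid precursors, differed by only -0.13 ± 0.10 in NFIL3 KO livers (limma, adjusted p = 0.435) and -0.27 ± 0.10 in WT livers (limma, adjusted p = 0.0551). Crot, which makes medium-chain acylcarnitines for export from peroxisomes, differed by 0.24 ± 0.12 in NFIL3 KO livers (limma, adjusted p = 0.186) and 0.10 ± 0.12 in WT livers (limma, adjusted p = 0.622). With cyclic loess scaling the NFIL3 KO difference of Crot was 0.37 and passed the test (limma, adjusted p = 0.0265).

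Both ketone body genes among the chosen genes fell by over 2-fold in each genotype. The 5 other measured genes of ketone body handling were split, with 2 that rose, 2 that fell and 1 not called in each genotype. Bdh1 encodes the enzyme that reduces acetoacetate to 3-hydroxybutyrate, the main ketone body in blood. Its level was 6.47, 6.31, 6.41, 6.16 and 5.82 in NFIL3 KO tunicamycin livers, against 8.19, 8.08, 8.06, 8.13 and 7.99 in NFIL3 KO vehicle livers. WT livers had 6.76, 6.91, 7.21, 6.75 and 6.05 under tunicamycin, against 8.37, 8.28, 8.23, 8.26 and 8.14 under vehicle. The vehicle arrays lay close together and far above every tunicamycin array. Bdh1 fell by 1.86 ± 0.15 in NFIL3 KO livers (limma, adjusted p = 2.07e-09), to 27.6% of the vehicle level, and by 1.52 ± 0.15 in WT livers (limma, adjusted p = 3.93e-08), to 34.9%. Acat1, the mitochondrial thiolase that joins acetyl-CoA units in ketone body synthesis, fell by 1.14 ± 0.13 in NFIL3 KO livers (limma, adjusted p = 4.34e-07) and by 1.28 ± 0.13 in WT livers (limma, adjusted p = 8.17e-08).

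Set side by side, the median difference in NFIL3 KO livers was -0.60 for the 20 genes of shuttle, dehydrogenases and cycle (with Slc22a5 of the plasma membrane among them), -0.86 for the 6 peroxisomal genes and -1.5 for the 2 ketone body genes. In WT livers these medians were -0.59, -0.92 and -1.40. The order depended on which genes were listed, since 13 other peroxisomal genes had medians of -0.39 in NFIL3 KO livers and -0.42 in WT livers, and 5 other genes of ketone body handling had medians of -0.09 in NFIL3 KO livers and 0.08 in WT livers. The 20 genes spanned -1.17 to -0.33 in NFIL3 KO livers and -1.33 to -0.26 in WT livers, and the 6 peroxisomal genes spanned -1.25 to 0.24 in NFIL3 KO livers and -1.39 to 0.10 in WT livers. The ranges overlapped, and differences between the 3 sets were not tested. Across the 32 genes the change bore little relation to the level under vehicle, with a Pearson r of -0.05 in NFIL3 KO livers and -0.10 in WT livers, over genes that share the same arrays.

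**Figure D3:**
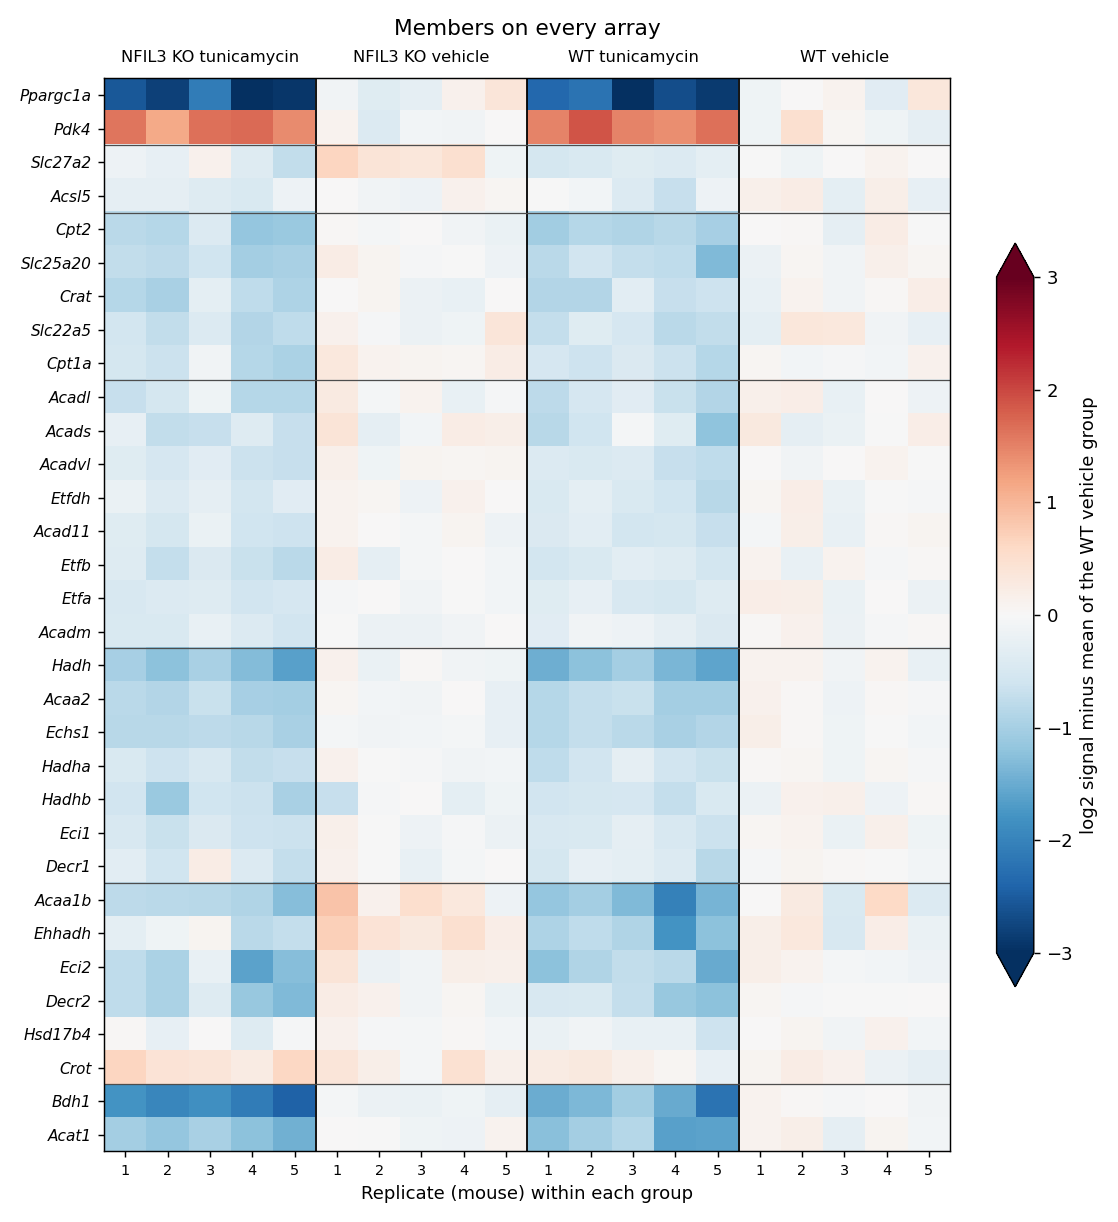
Log2 signal of each of the 32 genes (rows, by role) on each array (columns, 5 mice a group), as the difference from the mean of the WT vehicle group, with the colour scale ending at -3 and 3. Both tunicamycin blocks are blue for most genes and red for Pdk4. Crot is pale red in the NFIL3 KO tunicamycin block and lies to both sides of the WT vehicle mean in the WT tunicamycin block. Column 3 of the NFIL3 KO tunicamycin block is paler than its neighbours.

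The size of the fall varied between mice. Of the 27 genes that fell in both genotypes, NFIL3 KO tunicamycin replicate 3 had the highest value of its group in 20, and their median difference from the WT vehicle mean was -0.42 on that array, against -0.58 to -0.92 on the other 4. In the WT tunicamycin group the same median ran from -0.51 to -0.87. NFIL3 KO vehicle replicate 1 was the highest of its group in 19 of the 27 genes, with a median difference of 0.14.

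Some hepatocyte markers fell and others did not. Over all genes 13.7% fell in each genotype, and 13.5% rose in NFIL3 KO livers and 13.7% in WT livers. Of the 9 hepatocyte markers measured, 3 (Ttr, Apoa1 and Apoa2) fell in each genotype, and none rose. These 3 differed by -0.36 to -0.27 in NFIL3 KO livers and -0.39 to -0.24 in WT livers. Alb, Fgb, Serpina1c, Cps1, Ahsg and Hnf4a were not called and differed by -0.14 to 0.10 in NFIL3 KO livers and -0.19 to 0.04 in WT livers. The summed linear signal of all 9 was 62460 to 65060 in NFIL3 KO tunicamycin livers, against 68700 to 72310 in NFIL3 KO vehicle livers. In WT livers it was 60660 to 66220 under tunicamycin, against 69910 to 71760 under vehicle. The brightest marker, Alb, averaged 13.51 under tunicamycin and 13.55 under vehicle in NFIL3 KO livers. In WT livers it averaged 13.49 under tunicamycin and 13.55 under vehicle, close to the highest value on any array (13.7). Alb was called in neither genotype. Apoa2 and Ttr, at 13.3 and 13.23 in WT vehicle livers, did fall, and how far the top of the scale narrows a change was not tested. Of 6 sinusoidal endothelial markers, 2 fell in NFIL3 KO livers and 3 in WT livers, and none rose. Lyve1 differed by 0.40 in NFIL3 KO livers and 0.57 in WT livers and was not called. The summed signals of the 6 were 1967 to 2247 in NFIL3 KO tunicamycin, 2233 to 2534 in NFIL3 KO vehicle, 1743 to 2311 in WT tunicamycin and 2065 to 2611 in WT vehicle livers. Of 6 Kupffer cell markers none was called in NFIL3 KO livers and 2 (Adgre1 and Marco) rose in WT livers, with summed signals of 760 to 1377, 1082 to 1376, 1024 to 1329 and 755 to 1682 in the same order of groups. Of the 4 measured cholangiocyte markers 1, Sox9, fell in WT livers. The part of these markers in the results was not tested.

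No difference between the genotypes in the response of these genes was detected with 5 mice a group. No gene of the 32 was called in the interaction of genotype and tunicamycin, where 0.00902% of all genes were called. An unadjusted p under 0.05 (limma) was reached by 0 of the 32 as well, against 1019 of all 22180 genes. The largest differences between the responses, NFIL3 KO minus WT, were -0.34 ± 0.21 for Bdh1, 0.33 ± 0.27 for Ehhadh, -0.23 ± 0.19 for Slc27a2 and -0.16 ± 0.17 for Cpt1a. The 95% intervals of the 32 genes lay between -0.78 (Bdh1) and 0.89 (Ehhadh). The responses in NFIL3 KO and WT livers, which have separate vehicle mice, correlated with a Pearson r of 0.981 over the 32 genes, 0.94 without Ppargc1a and Pdk4, and 0.916 over all genes. These are descriptions across genes measured on the same arrays.

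**Figure D4:**
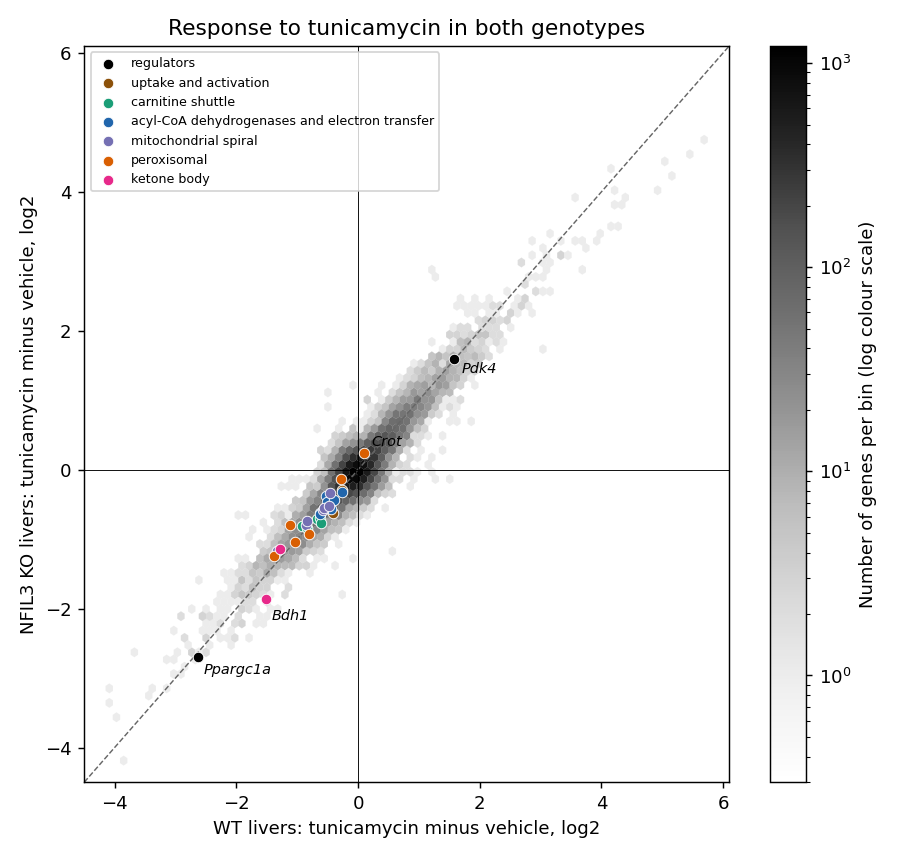
Response to tunicamycin in NFIL3 KO livers (y axis, log2 difference from vehicle) against that in WT livers (x axis, same unit), with all 22180 genes as grey bins (darker for more genes, log colour scale) and the 32 pathway genes as points coloured by role. The points follow the dashed line of equal response, with Bdh1 below it at -1.86 and -1.52.

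NFIL3 KO and WT livers were then set against each other under each treatment. Under tunicamycin none of the 32 genes was called, where 0.176% of all genes rose and 0.0676% fell. An unadjusted p under 0.05 (limma) was reached by 4 of the 32, against 1986 of all 22180 genes. Ehhadh was 9.34, 9.50, 9.72, 8.81 and 8.90 in NFIL3 KO tunicamycin livers, against 8.70, 8.87, 8.73, 7.84 and 8.40 in WT tunicamycin livers. The 2 groups overlapped, and the difference was 0.75 ± 0.19 (limma, adjusted p = 0.175). The next largest were -0.50 ± 0.15 for Bdh1 (limma, adjusted p = 0.278), 0.46 ± 0.21 for Acaa1b (limma, adjusted p = 0.516) and 0.35 ± 0.12 for Crot (limma, adjusted p = 0.374). Without WT tunicamycin replicate 5, whose Bdh1 level of 6.05 was the lowest of its group, the difference of Bdh1 was -0.67 and passed the test (limma, adjusted p = 0.0193).

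Under vehicle none of the 32 genes was called either, against 0.0225% of all genes. An unadjusted p under 0.05 (limma) was reached by 2 of the 32, against 1184 of all 22180 genes. The largest differences, NFIL3 KO minus WT, were 0.42 ± 0.19 for Ehhadh (limma, adjusted p = 0.906), 0.35 ± 0.14 for Slc27a2 (limma, adjusted p = 0.814), 0.33 ± 0.21 for Acaa1b (limma, adjusted p = 0.953) and -0.23 ± 0.13 for Hadhb (limma, adjusted p = 0.942). The value of Slc27a2 came largely from its dim probeset, and the bright one alone differed by 0.09. The differences of Ehhadh and Acaa1b were positive under both treatments and passed the test under neither.

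Of 52 other genes of the same pathways, 31 (59.6%) fell and 7 (13.5%) rose in NFIL3 KO livers, where 13.7% of all genes fell and 13.5% rose. In WT livers 30 (57.7%) fell and 5 (9.6%) rose, against 13.7% and 13.7% of all genes. The share that rose was thus near or below that of all genes. Ppara, the nuclear receptor that drives fatty acid oxidation in the liver, fell by 1.63 ± 0.16 in NFIL3 KO livers (limma, adjusted p = 2.92e-08) and by 1.68 ± 0.16 in WT livers (limma, adjusted p = 1.64e-08). Ppargc1b, the relative of Ppargc1a, fell by 0.91 in NFIL3 KO livers and 1.33 in WT livers. Acacb, the carboxylase whose product inhibits Cpt1a, fell by 1.90 in NFIL3 KO livers and fell by 2.09 in WT livers.

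Fgf21 encodes a hormone of fasting and of cell stress. Its level was 7.74, 7.39, 7.82, 8.14 and 8.56 in NFIL3 KO tunicamycin livers, against 5.83, 6.12, 5.36, 5.44 and 8.31 in NFIL3 KO vehicle livers. WT livers had 7.83, 8.66, 9.07, 7.96 and 7.75 under tunicamycin, against 4.98, 5.08, 5.17, 4.96 and 5.97 under vehicle. The groups were apart in WT livers and overlapped in NFIL3 KO livers through vehicle replicate 5. Fgf21 rose by 1.72 ± 0.40 in NFIL3 KO livers (limma, adjusted p = 0.002) and by 3.02 ± 0.40 in WT livers (limma, adjusted p = 2.76e-06), and the difference between these responses was not called (-1.30 ± 0.57, limma, adjusted p = 1.00). Without NFIL3 KO vehicle replicate 5 it rose by 2.24 ± 0.27 in NFIL3 KO livers (limma, adjusted p = 1.11e-06), and the difference between the responses was -0.78 ± 0.37. Acot2, a mitochondrial thioesterase that releases free fatty acid from acyl-CoA, rose by 3.29 in NFIL3 KO livers and 3.31 in WT livers. Acsl4, an acyl-CoA synthetase that prefers polyunsaturated fatty acids, rose by 1.70 in NFIL3 KO livers and 1.76 in WT livers. Bbox1, the last enzyme of carnitine synthesis, fell by 1.10 in NFIL3 KO livers and 1.30 in WT livers. Among peroxisomal genes, Hacl1, a lyase of alpha-oxidation, fell by 1.5 in NFIL3 KO livers and 1.91 in WT livers, and the thioesterase Acot3 fell by 1.43 in NFIL3 KO livers and 1.29 in WT livers. The transporter Abcd2 differed by -0.91 ± 0.40 in NFIL3 KO livers (limma, adjusted p = 0.104, or 0.04 without WT vehicle replicate 5) and fell by 1.81 ± 0.40 in WT livers (limma, adjusted p = 0.00105).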

How the data were processed

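Signals of MoGene-2_0-st Affymetrix arrays were corrected, quantile-normalized and summarized by median polish (RMA, Partek Genomics Suite) by the authors, and the deposited values are log2 signals of 41345 probesets, used as they are. They lay between 0.515 and 13.7, with array medians of 4.65 to 4.77. Exactly 1 gene symbol was given to 23521 probesets, 1820 had several and 16004 none. Probesets of 1 symbol were averaged, which gave 22180 genes, and 1082 of these had more than 1 probeset. Quantile normalization gives all arrays 1 distribution, so changes are relative to the other genes of an array, and the number of arrays limits the precision.

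Groups were taken from the sample titles. Group means of all 20 arrays were fitted in R 4.3.3 with limma 3.58.1 (lmFit and eBayes), with 5 two-sided contrasts and Benjamini-Hochberg adjustment over the 22180 genes at 0.05. The procedure was tested on simulated data. Tables were made with pandas 2.3.3 and figures with matplotlib 3.10.9. The labels do not say that replicate numbers pair the mice, so no pairing was fitted, and they give no batch. Alternatives covered scaling, probesets, dim genes, the samples and the variance in the fit, a fold threshold, a replicate block and leaving out each array.

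The members and the lists of other pathway genes and markers were chosen with earlier results of these data known. Every measured member is named under tunicamycin. For genotype and interaction the 4 largest differences are named where under 4 were called. Some genes of the pathway are not reported here. Of the other pathway genes, Ppara and Fgf21 are named, with the 8 largest differences among those called in WT livers. Values on each array are given for Ppargc1a, Pdk4, Cpt1a and the member with the largest change of each role. Other genes, and Hadha and Hadhb among the printed promoters, were chosen after their values were seen. Promoter windows and chromosomes are those of RefSeq (GRCm38.p6), matched by symbol.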

Additional observations from a re-analysis of the deposited data

Results flagged for a closer look

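In 128 groups of 5 mice (32 genes in 4 groups), 3 held a mouse whose gap to the nearest other was large for the range of its group by Dixon's criterion. Chance flags about 1 in 20 groups. Echs1 was 9.005 in NFIL3 KO tunicamycin replicate 5, against 9.142 to 9.188 in the other 4 mice of the group. Acaa1b was 8.181 in the same mouse, against 8.567 to 8.684 in the other 4. Hsd17b4 was 10.181 in WT tunicamycin replicate 5, against 10.596 to 10.709 in the other 4. Each of the 3 values was the lowest of its group, in genes of the mitochondrial cycle (Echs1) and of the peroxisome (Acaa1b and Hsd17b4). Leaving out the mouse concerned did not change the call of any of the 3 genes in its own genotype.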

How the results depend on the processing

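Of the members and other pathway genes named, Phyh alone changed sign under the alternatives run (-0.0174 between genotypes under vehicle with the brightest probeset), and the markers were not put through them. Requiring a change of at least 1.5-fold left 18 genes that fell in NFIL3 KO livers (27 without this limit) and 17 in WT livers (28). With cyclic loess scaling 2 genes rose in NFIL3 KO livers, Pdk4 and Crot. Leaving out 1 array at a time gave 27 to 28 genes that fell and 1 to 1 that rose in NFIL3 KO livers, 26 to 29 that fell and 1 to 1 that rose in WT livers, and 0 to 1 called lower in NFIL3 KO livers against WT livers under tunicamycin (Bdh1, without WT tunicamycin replicate 5). Counts of the other genotype comparisons and of the interaction were 0 to 0, and the linear model without moderation of the variance also called 0 there and 0 between genotypes under tunicamycin. With the replicate block, 27 genes fell in NFIL3 KO livers and 27 in WT livers. Acadm lost its WT call there (limma, adjusted p = 0.0559), and no other call changed. Same-numbered mice of different groups deviated from their group means with correlations of -0.137 to 0.104 (30 pairs), and 3 of 20 arrays correlated best with their own number. Hsd17b4 passed in WT livers under 7 alternatives (-0.27 to -0.32, limma), Acsl5 under 2 in NFIL3 KO livers and 1 in WT livers, and Decr1 under 3 in NFIL3 KO livers. Taking the brightest probeset gave Crat -1.30 in NFIL3 KO livers and -1.19 in WT livers. Hacl1 also passed between genotypes under tunicamycin with cyclic loess (0.69, limma, adjusted p = 0.0437). Where these calls changed the cause was not tested. Median centring gave 27 falls in NFIL3 KO livers and 26 in WT livers, and over all genes 3144 rises and 2560 falls in NFIL3 KO and 3312 rises and 2473 falls in WT livers. The arrays measure RNA at 1 time after injection, and dim probesets such as that of Hadhb limit the size of a change that can be seen.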

Other observations

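Further pathway genes are given by role, chosen after their values were seen. Over all genes 13.7% fell in each genotype, and 13.5% rose in NFIL3 KO livers and 13.7% in WT livers. All 3 genes of carnitine synthesis fell in both genotypes. Of 5 measured genes of ketone body handling other than Bdh1 and Acat1, 2 rose and 2 fell in each genotype. The risers were monocarboxylate transporters, through which ketone bodies cross membranes. Slc16a6 averaged 7.17 ± 0.14 under tunicamycin and 5.88 ± 0.23 under vehicle in NFIL3 KO livers, and 7.08 ± 0.35 under tunicamycin and 6.14 ± 0.41 under vehicle in WT livers (SD, n = 5 each; limma, adjusted p = 2.81e-06 in NFIL3 KO livers and 0.000167 in WT livers). Slc16a1 rose by 0.80 in NFIL3 KO livers and 0.46 in WT livers. Bdh2, a cytosolic relative of Bdh1, fell by 1.13 in both genotypes. The other gene of the 5 that fell was Sirt5. In NFIL3 KO livers Sirt5 averaged 6.11 under tunicamycin and 6.52 under vehicle, and in WT livers 6.23 and 6.80. Oxct1, the enzyme that uses ketone bodies outside the liver, differed by -0.09 in NFIL3 KO livers and 0.08 in WT livers and did not pass.

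Between genotypes under tunicamycin, the gene of the 52 with the smallest adjusted p was the peroxisomal lyase Hacl1. It averaged 8.94 ± 0.29 in NFIL3 KO livers and 8.28 ± 0.23 in WT livers (SD, n = 5 each), a difference of 0.66 that did not pass (limma, adjusted p = 0.0611). It passed without NFIL3 KO vehicle replicate 2 or 5 or NFIL3 KO tunicamycin replicate 4 (limma, adjusted p = 0.0356 to 0.045). Phyh, which starts alpha-oxidation, differed by 0.45 under tunicamycin and 0.59 under vehicle (NFIL3 KO minus WT; limma, adjusted p = 0.365 and 0.423), but its brightest probeset alone differed by 0.07 and -0.02.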
